A study of Mus musculus with 2 samples.

Results

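The miRNAs miR-129, miR-365 and miR-206 were followed through their 5 mouse hairpins, Mir129-1, Mir129-2, Mir365-1, Mir365-2 and Mir206, out of 2199 miRNA hairpins in the annotation. Their members were the reads of 18 nt or more that lay in sense and without mismatch in a hairpin: 18494 reads of 89 sequences in the f/f library and 35 reads of 10 sequences in the null library. The hairpins were chosen by their read counts, high in f/f and nearly missing from null, so each ratio of an arm between the libraries describes the choice and was not tested. Lengths, ends, tails, arm use and copy use within f/f were not part of that choice.

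Small RNA was sequenced from 2 immortalized clonal lines of C57BL/6 mesenchymal stem cells (MSCs), which are fibroblast-like cells of the bone marrow. The f/f library came from Dicer f/f cells, whose floxed Dicer alleles are intact, and the null library from Dicer -/- cells. Both were harvested just short of confluence from a medium with fetal bovine serum. With 1 library per genotype, the genotype, the clone, the culture and the library cannot be told apart, and fewer cells of a type and less RNA per cell cannot be told apart either. All intervals are exact 95% intervals and cover counting error only, since reads without molecular identifiers are not independent molecules.

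The f/f library held 9943989 reads and the null library 6291599, so that 1 read equalled 0.101 and 0.159 CPM, a read's share of its library on a common scale, and a count of 0 allowed up to 0.302 and 0.477 CPM, taken as 3 reads rather than as an interval. Reads in annotated hairpins made up 59.6% of f/f and 2.17% of null. The fibroblast or mesenchymal marker miRNAs reached a summed level of 189063 CPM in f/f against 4873 in null. Most of their 30658 null reads came from 2 species: Mir21a-5p had 17934, of which 15902 were 24 nt or longer, and miR-199a-5p of both copies had 9302, of which 4796 were that long. Of their 13 species with 100 or more f/f reads, 12 were lower in null by more than 2-fold, against 87.9% of all such species. Marker miRNAs of other cell types were low in both libraries: blood 17.8 and 92.3 CPM, endothelial 33.5 and 2.07, epithelial 3.22 and 24.8, muscle 0.402 and 1.11, and neural 6.23 and 1.59 CPM in f/f and null. The blood and epithelial sums were 5.19-fold (4.38 to 6.17) and 7.71-fold (5.24 to 11.7) higher in null, and the endothelial and neural sums were lower. Mir451a-5p alone held 157 of the 177 f/f reads and 508 of the 581 null reads of the blood list. The part of these cell types in the results was not tested.

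An miRNA is cut from a hairpin transcript in steps. Drosha frees the hairpin in the nucleus, Dicer removes the loop in the cytoplasm, and an Argonaute protein keeps 1 of the arms, which finds its targets mainly through the seed, bases 2 to 8. miR-206 is known as a miRNA of skeletal muscle, miR-129 is best known from the nervous system, and miR-365 is encoded beside miR-193 and has been studied in brown fat and cartilage.

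The 5 hairpins are shown first because the results turn on which arm, end or copy the reads came from. The sequences are those of the RefSeq table on GRCm38.p6, 5' to 3', with the mature arms in capitals.
Mir129-1: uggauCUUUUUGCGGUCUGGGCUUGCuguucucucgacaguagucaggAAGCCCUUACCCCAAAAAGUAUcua
Mir129-2: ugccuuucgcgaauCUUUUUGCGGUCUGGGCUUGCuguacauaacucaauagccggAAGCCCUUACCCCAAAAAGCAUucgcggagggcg
Mir365-1: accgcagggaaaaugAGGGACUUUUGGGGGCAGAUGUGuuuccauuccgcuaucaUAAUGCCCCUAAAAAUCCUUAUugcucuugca
Mir365-2: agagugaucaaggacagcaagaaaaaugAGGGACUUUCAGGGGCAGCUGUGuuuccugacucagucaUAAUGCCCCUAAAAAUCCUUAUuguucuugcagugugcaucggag
Mir206: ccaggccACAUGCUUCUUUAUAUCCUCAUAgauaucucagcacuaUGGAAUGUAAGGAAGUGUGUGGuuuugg

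The mature arms that carried most of the reads, and the pair of miR-365 5p arms, are given with the seed in capitals.
miR-129-5p: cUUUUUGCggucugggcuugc
miR-129-2-3p: aAGCCCUUaccccaaaaagcau
miR-365-3p: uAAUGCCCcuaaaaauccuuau
miR-365-1-5p: aGGGACUUuugggggcagaugug
miR-365-2-5p: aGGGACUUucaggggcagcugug
miR-206-3p: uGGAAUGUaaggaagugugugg
Among 1679 mature names in the RefSeq table, the seeds UUUUUGC of miR-129-5p, AAUGCCC of miR-365-3p and AGCCCUU of miR-129-2-3p each belonged to that 1 name. The 3p arm of Mir129-1 has no name of its own there, and its seed is also AGCCCUU. The seed GGGACUU was shared by both miR-365 5p arms. Among the same names, the seed GGAAUGU of miR-206-3p was shared with miR-6349 and miR-6382, which had 0 reads in either library. Arms without a name there were not compared, so other miRNAs may share these seeds.

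On GRCm38, Mir129-1 lies at chr6:29022619-29022691 on the plus strand, within an exon of the lincRNA Gm3294. Mir129-2 lies at chr2:94241364-94241453 on the minus strand, within an intron of the lincRNA Mir670hg and overlapping the hairpin Mir129b on the other strand. Mir365-1 lies at chr16:13453840-13453926 on the plus strand, opposite an intron of the antisense RNA Gm15738. Mir365-2 lies at chr11:79726400-79726511 on the plus strand, between genes. Mir206 lies at chr1:20679010-20679082 on the plus strand, with 60 of its 73 bases in an exon of the lincRNA Gm28653. The 5 hairpins had 0 antisense reads in both libraries. Outside the hairpins, the overlapping transcripts Gm3294, Mir670hg, Gm28653 and Gm15738 had 0 reads of their own in f/f, and 0, 1, 3 and 0 in null.

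Nearly all of the reads came from 4 arms. miR-129-5p had 6409 reads in f/f and 1 in null, or 645 and 0.159 CPM, a level 4055-fold lower in null (interval 728 to 160189). miR-365-3p had 6305 reads in f/f and 2 in null, or 634 and 0.318 CPM, 1995-fold lower (552 to 16474). These levels in f/f lay within each other's counting error and ranked 72nd and 73rd among the miRNA species of that library.

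miR-129-2-3p had 3353 reads in f/f, or 337 CPM, and 0 in null, which is at least 707-fold lower. miR-206-3p had 2236 reads in f/f, or 225 CPM, and 0 in null, at least 472-fold lower. The floor behind both bounds is 3 counts in the null library. A bound against 0 reads scales with the f/f count, so these folds give the 4 arms no order. Scaled per miRNA read instead of per read, the differences were 148-fold for miR-129-5p, 72.6-fold for miR-365-3p and at least 17.2-fold for miR-206-3p. All reads in the 5 hairpins made up 0.312% of the f/f miRNA reads and 0.0257% of those in null. Most of that null share is not of arms, since 31 of its 35 reads lay before the Mir365-2 5p arm.

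The minor arms were scarce in f/f and had at most 1 read in null. miR-365-2-5p had 78 f/f reads (7.84 CPM) and 0 in null, at least 16.5-fold lower, and miR-365-1-5p had 64 f/f reads (6.44 CPM) and 0 in null, at least 13.5-fold lower. A further 36 f/f reads of miR-129-3p, too short to tell its copies apart, and 8 of miR-129-1-3p had 0 in null. miR-206-5p had 0 reads in f/f and 1 in null.

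**Figure D1:**
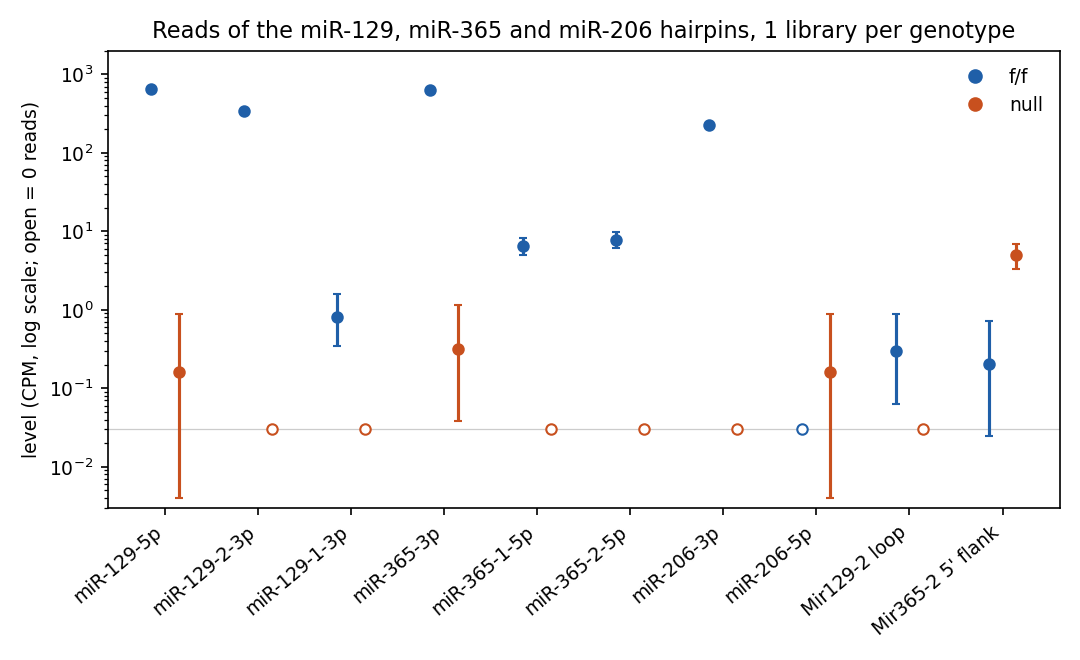
Level of each arm, of the Mir129-2 loop and of the stretch before the Mir365-2 5p arm (5' flank) in the f/f and null libraries, in CPM on a log axis, with exact 95% Poisson intervals as bars (1 library per genotype); open points are 0 reads, set on a line of their own. The 4 leading arms lie between 225 and 645 CPM in f/f and at or below 0.318 CPM in null, whereas the stretch before the Mir365-2 5p arm is higher in null.

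Low null counts were common among abundant miRNAs. Of the 159 miRNA species that reached 1000 f/f reads, 20.1% were lower in null by more than 400-fold, with 0 null reads set to 3. That floor keeps some species with 0 null reads below 400-fold, such as Mir92-1/Mir92-2-3p at 383-fold with 1816 f/f reads. Of the same 159 species, 12.6%, or 20 species, had at most 2 null reads. The 4 leading arms are among those 20 by choice, so nothing is read from their place there. Of the 20 species, 19 were 3p arms and 1 was a 5p arm, miR-129-5p, while the 159 species comprised 90 5p arms and 69 3p arms. Arms were split here at the hairpin midpoint, so reads before a 5p arm count as 5p and reads after a 3p arm as 3p. The part of that split in these numbers was not tested.

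Species within 2-fold of each leading arm in f/f are given for scale, since the choice by null counts fixes where the 4 arms stand among them. The 32 species within 2-fold of miR-129-5p in f/f had a median of 63.5 null reads (0 to 4131), and 3 of them, 2 being other arms of the 5 hairpins, had at most 2. For the 34 species around miR-365-3p the median was 71 null reads, with 4 at 2 or fewer, 2 of them arms of these hairpins. Around miR-206-3p, 69 species had a median of 26 null reads, with 12 at 2 or fewer, 1 of them an arm of these hairpins. Around miR-129-2-3p, 58 species had a median of 25, with 9 at 2 or fewer, 3 of them arms of these hairpins.

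**Figure D2:**
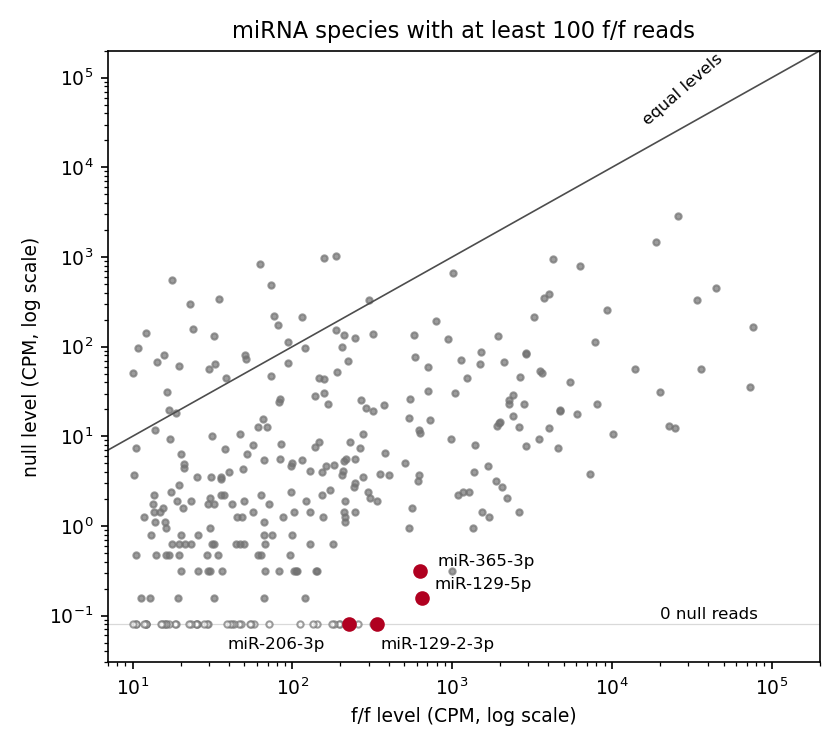
Null against f/f level in CPM on log axes of the 314 miRNA species with 100 or more f/f reads, with a diagonal of equal levels; open points are species with 0 null reads, set on a line of their own, and the 4 leading arms are named in red. miR-129-5p and miR-365-3p lie at 1 and 2 null reads and miR-129-2-3p and miR-206-3p on the line of 0.

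The species most like miR-129-5p, miR-365-3p and miR-206-3p were found by the summed difference in log2(CPM + 1) over the 2 libraries. For miR-129-5p the nearest was miR-365-3p, at 0.208, followed by Mir25-3p (9954 f/f and 2 null reads) at 0.82 and Mir484-5p (5381 and 6 reads) at 1. For miR-365-3p the same species followed miR-129-5p, at 0.658 and 0.796. For miR-206-3p the nearest were Mir107-3p (1985 and 0 reads) at 0.171, Mir34b-3p (1957 and 0) at 0.191 and Mir500-3p (2559 and 0) at 0.194.

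All 4 null reads of an arm can be shown. The read of miR-129-5p and both reads of miR-365-3p were letter for letter the commonest f/f sequences of those arms, with the seed in capitals here. The read of miR-206-5p, of 26 nt, ran 3 nt past the annotated end of the arm and matched no f/f read.
miR-129-5p in null, 1 read: cTTTTTGCggtctgggcttgc
miR-365-3p in null, 2 reads: tAATGCCCctaaaaatccttat
miR-206-5p in null, 1 read: aCATGCTTctttatatcctcatagat
The first of these also matches an exon of Gm3294, because Mir129-1 lies in it. Counted together, both arms of the 5 hairpins had 18489 reads in f/f and 4 in null, 2925-fold lower (1142 to 10735).

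The families differed in which arm the f/f reads came from. In miR-129 both arms were abundant: 65.4% of 9806 reads were 5p (64.4 to 66.3). In miR-365, 2.20% of 6447 reads were 5p (1.86 to 2.59), so that the 3p arm had 44.4 reads for each 5p read. In miR-206, 0 of 2236 reads were 5p, which allows a share of up to 0.134% by the limit of 3 reads and 0.165% by the exact interval. The intervals of the 3 families do not overlap.

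**Figure D3:**
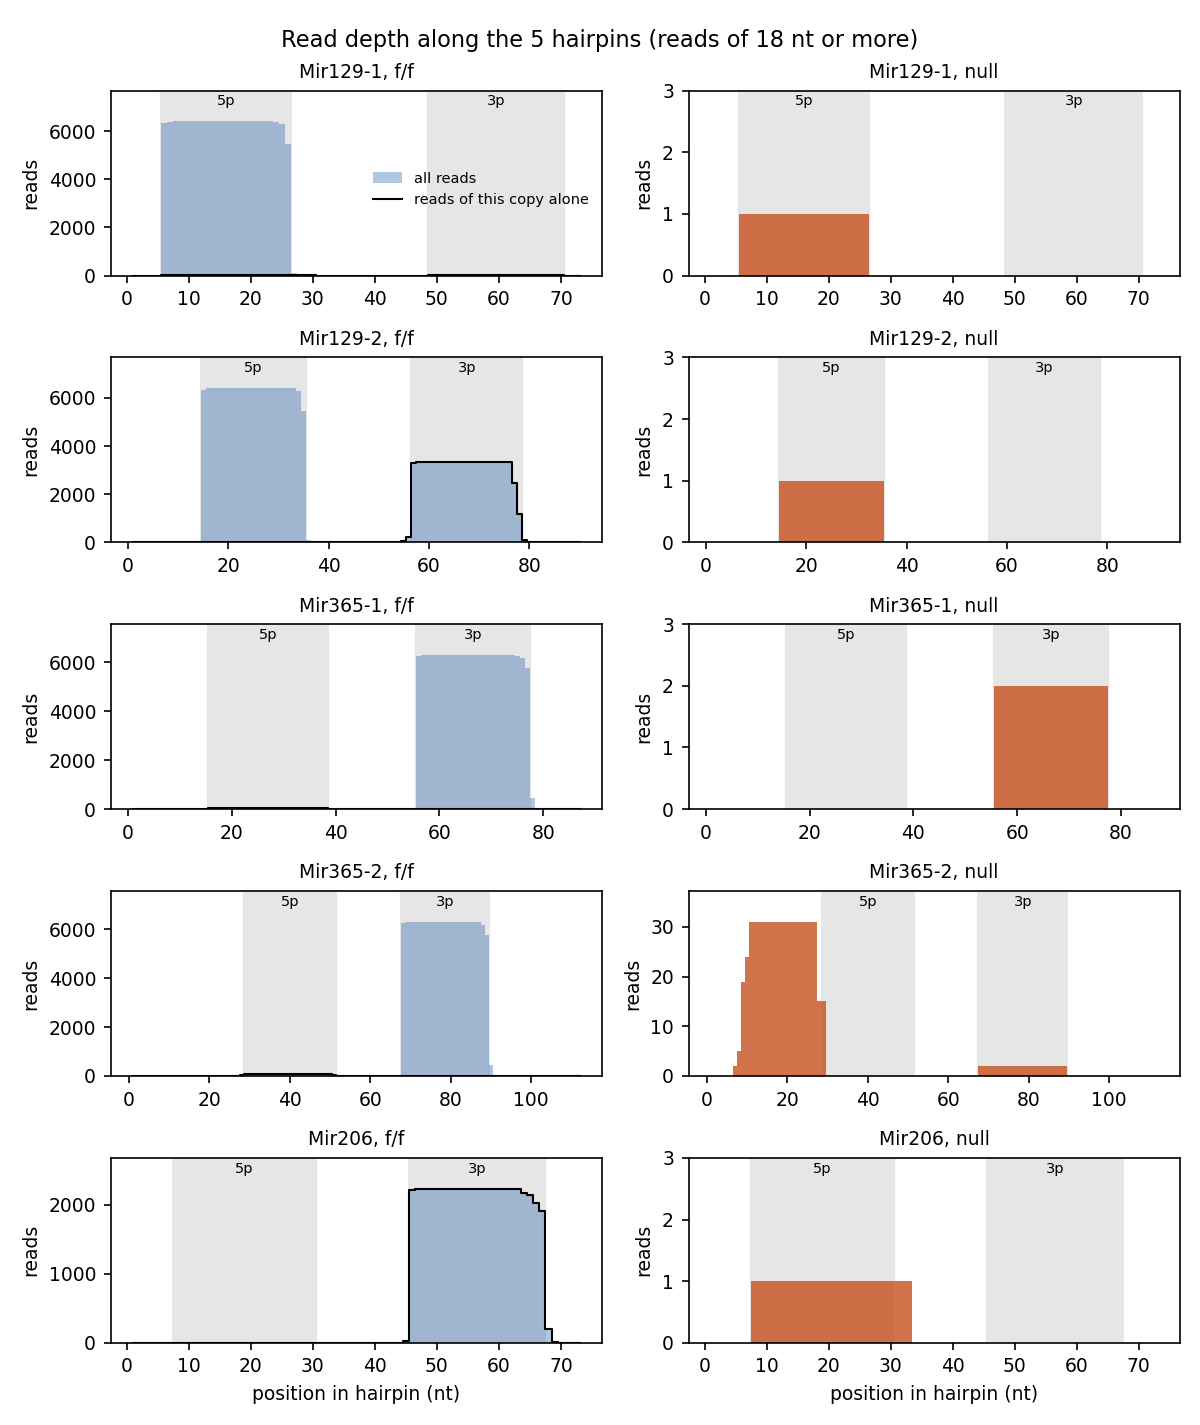
Number of reads over each base of the 5 hairpins in f/f (left) and null (right), on linear axes whose height differs between panels, against the position in the hairpin in nt; the mature arms are shaded, the filled area is all reads and the black line in f/f is the reads of that copy alone. In f/f the depth stands on both arms of Mir129-2, on the 5p arm of Mir129-1 and on the 3p arms of the miR-365 and miR-206 hairpins. Reads that fit both copies are drawn in both hairpins, which holds for nearly all miR-129 5p reads. In null the deepest stretch, with 31 reads, lies before the 5p arm of Mir365-2.

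Copies of miR-129 and miR-365 could be told apart mainly in 1 arm of each. The 5p arms of Mir129-1 and Mir129-2 are identical, while the 3p arms differ by C20U, counted from the 5' end of the arm and from Mir129-2 to Mir129-1. Of 3361 reads that reach this base without mismatch, 8 fitted Mir129-1, or 0.238% (0.103 to 0.468), and 3353 fitted Mir129-2. Among reads of 21 nt or more, counted with any base allowed at position 20, 2308 of 2320 had C, 4 had U, 8 had A, which fits neither copy, and 0 had G. The reads fitting Mir129-1 at this base were thus no more frequent than reads with a base that neither copy has. In the 5p arm, 3 longer f/f reads fitted Mir129-1 and not Mir129-2, and 0 did the reverse. These 3 reads ended at base 30 of Mir129-1, the first base past the arm where the copies differ. Their fit thus rests on 1 last base, a U, which cannot be told from a U that does not come from the hairpin.

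Reads of the miR-365 5p arm split nearly evenly between the copies. Their 3p arms are identical, and their 5p arms differ by U10C, G11A and A19C, from Mir365-1 to Mir365-2. Of 142 f/f reads of the 5p arm, 64 fitted Mir365-1 and 78 Mir365-2, so that Mir365-1 gave 45.1% (36.7 to 53.6), an interval that holds equal shares. The copy behind the 6305 reads of miR-365-3p cannot be read from their sequence.

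The leading f/f isoforms matched the RefSeq arms for 3 of the 4 abundant arms. Of miR-129-5p reads, 82.4% were the 21 nt arm and 12.9% lacked its last base, with 1.40% and 1.30% in the next sequences of 19 and 22 nt. Of miR-365-3p reads, 83.8% were the 22 nt arm, 7.17% had 1 more hairpin base, 6.19% had 1 base less and 1.90% had 2 bases less. Of miR-206-3p reads, 75.5% were the 22 nt arm, 8.05% had 1 more hairpin base, 4.92% lacked 2 bases and 4.79% lacked 1 base.

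miR-129-2-3p had no such dominant form. Its leading sequences, which differ in their last bases, held 1167, 1058 and 771 reads, or 34.8%, 31.6% and 22.99%. They are shown with the seed in capitals.
miR-129-2-3p, 21 nt: aAGCCCTTaccccaaaaagca
miR-129-2-3p, 22 nt: aAGCCCTTaccccaaaaagcat
miR-129-2-3p, 20 nt: aAGCCCTTaccccaaaaagc
The leading form thus lacked the last base of the RefSeq arm.

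**Figure D4:**
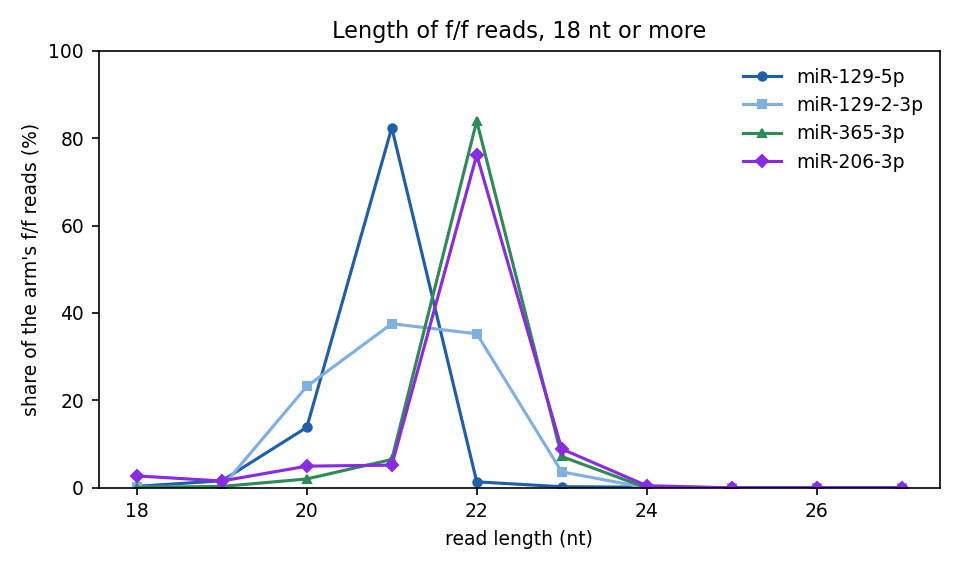
Share of f/f reads of each leading arm by read length in nt, for reads of 18 nt or more (1 library). miR-129-5p peaks at 21 nt, miR-365-3p and miR-206-3p at 22 nt, and miR-129-2-3p is spread over 20, 21 and 22 nt.

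The 5' ends, which set the seed, were nearly uniform. The commonest 5' end held 99.4% of miR-365-3p reads, 98.7% of miR-129-5p, 97.9% of miR-206-3p and 91.8% of miR-129-2-3p, against a median of 97.9% over the 159 abundant species (quartiles 94.4 and 99.05). The 3' ends varied more. The commonest 3' end held 84.2% of miR-365-3p, 83.4% of miR-129-5p, 76.7% of miR-206-3p and 38.1% of miR-129-2-3p reads, against a median of 68.6% (quartiles 54.7 and 82.05), and 151 of the 159 species had a more uniform 3' end than miR-129-2-3p.

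The minor miR-365 5p arms had less uniform 5' ends. Of 78 reads from Mir365-2, 54 began at base 29 of the hairpin, the RefSeq start of the arm, and 24 began 1 base earlier, at base 28. Of 64 reads from Mir365-1, 50 began at base 16, its RefSeq start, with 9 at base 17, 4 at base 15 and 1 at base 14. Reads that began away from the RefSeq start carry a shifted seed. The commonest sequence of each was the 23 nt RefSeq arm, with 43 reads from Mir365-1 (67.2%) and 40 from Mir365-2 (51.3%).

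Tails, meaning up to 3 bases at the 3' end that do not match the hairpin, differed between the arms. Shares here are of reads that begin at the RefSeq start of the arm, tailed reads included. Tailed reads do not match the hairpin in full and are not among the members. For miR-206-3p, 484 f/f reads had a tail beside 2190 without, a share of 18.1% (16.7 to 19.6). Of the 484 tails, 377, or 77.9%, were of A only. A tails thus sat on 14.1% of these miR-206-3p reads, against a median of 5.47% over the 159 species, of which 16 had a higher share. Tails were found on 9.63% of miR-129-5p, 9.49% of miR-365-3p and 6.45% of miR-129-2-3p reads, near or below the median of 13.0%. A sequencing error in a read's last bases also counts as a tail, and null had 0 tailed reads of these 4 arms.

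Reads of 15 to 17 nt lie under the length limit of the choice. In f/f there were 542 from miR-129-5p, 315 from miR-129-2-3p, 215 from miR-206-3p and 75 from miR-365-3p, and null had 0 from each. Most of those of 16 nt began more than 2 nt inside the arm: 97.9% for miR-129-5p, 100% for miR-129-2-3p, 82.5% for miR-206-3p and 81.8% for miR-365-3p. They therefore lacked part or all of the seed.

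The commonest short reads of miR-129-5p and miR-206-3p are shown as examples that keep the 3' end of the arm and lack its 5' end.
miR-129-5p, 446 f/f reads: tgcggtctgggcttgc
miR-206-3p, 152 f/f reads: gtaaggaagtgtgtgg
The former covers the arm from base 6, and the latter from base 7, to its last base. Reads of 16 nt made up 3.90% of f/f and 6.20% of null as a whole. Reads of 15 to 17 nt were 1.18% to 8.77% of an arm's f/f reads of 15 nt or more. Since null had at most 2 longer reads of any of these arms, its 0 short reads cannot be compared with those shares.

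A few f/f reads covered a loop. They are shown because each spans the whole stretch between the arms, from the base after the 5p arm to the base before the 3p arm.
Mir129-2 loop, 3 f/f reads: tgtacataactcaatagccgg
Mir365-1 loop, 2 f/f reads: tttccattccgctatca
The second read, of 17 nt, is shorter than the limit for the members, and its match to other transcripts was not searched. Null had 0 of either, which allows up to 0.477 CPM, more than the f/f level of 0.302 CPM for Mir129-2, so that a difference was not detectable at this depth.

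The stretch before the Mir365-2 5p arm ran the other way. It had 2 reads in f/f and 31 in null, or 0.201 and 4.93 CPM, 24.5-fold higher in null (6.23 to 211). These reads made up 31 of the 35 null reads in the 5 hairpins. Of the 31, 16 ended at base 27 of the hairpin and 15 at base 29, the first base of the 5p arm, which is in capitals here.
Mir365-2, bases 9 to 27, 13 null and 0 f/f reads: caaggacagcaagaaaaat
Mir365-2, bases 11 to 29, 7 null and 1 f/f reads: aggacagcaagaaaaatgA
Mir365-2, bases 10 to 29, 4 null and 0 f/f reads: aaggacagcaagaaaaatgA
The 3' ends thus fell within 2 bases of the 5' ends of the f/f 5p reads, at bases 28 and 29. None of these reads matched another annotated transcript. A search of the whole genome was not made here.

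The other 4 hairpins have 5 to 15 bases before the 5p arm in the annotation, too few for a read of this kind. Among 161 hairpins with at least 16 bases there, 28 had such reads, and 25 of the 28 had a higher CPM in null. Summed over all 161, there were 467 reads in f/f and 1717 in null, 5.81-fold higher in null (5.24 to 6.45), and 5.73-fold higher without Mir365-2. Of the 15 hairpins with at least 10 reads, 14 were higher in null, and Mir195a was lower, with 27 f/f and 4 null reads. Mir365-2 was 8th by null number of reads, behind Mir331, Mir214, Mir7-1, Mir674, Mir322, Mir96 and Mir20a.

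The mix of RNA also differed between the libraries. Reads of snoRNAs and snRNAs, classes made without Dicer, were 1.16% of f/f and 5.04% of null. Per such read, the stretch before the 5p arm was 1.34-fold higher in null over all 161 hairpins (1.21 to 1.48) and 5.64-fold higher for Mir365-2 (1.43 to 48.6). On that scale 11 of the 15 hairpins were higher in null, and Mir331, Mir674, Mir101b and Mir195a were lower. The part of this mix in the result was not tested.

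**Figure D5:**
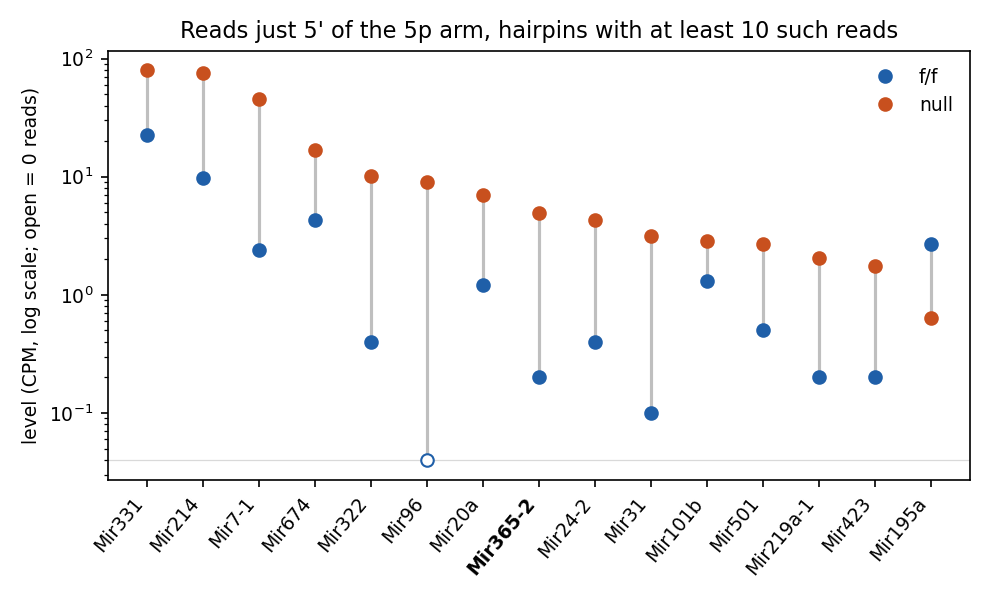
Level of the reads just before the 5p arm in f/f and in null, in CPM on a log axis, for the 15 hairpins with at least 10 such reads, ordered by null level; an open point is 0 reads and Mir365-2 is in bold. In 14 of the 15 the null point lies above the f/f point, and Mir365-2 lies at 4.93 CPM in null and 0.201 CPM in f/f.

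Hairpins near the members on the same strand were compared as possible parts of the same transcript. Mir193a lies 14366 bp from Mir365-2, Mir193b 4239 bp from Mir365-1, Mir133b 3687 bp from Mir206 and Mir670 19847 bp from Mir129-2. Mir193a-3p had 6094 reads in f/f, close to miR-365-3p, and 20 in null, 193-fold lower in null (125 to 316), and 9 of its 20 null reads were 36 nt long, the longest length in the files. Mir193b-3p had 5577 and 10 reads, 353-fold lower (192 to 736). Both pairs are given side by side only, since miR-365 was chosen by these counts.

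On the 5p side of these neighbours, Mir193a-5p had 969 f/f and 29 null reads, 11 of the null reads being 24 nt or longer, and Mir193b-5p had 82 and 11, with 5 of that length. Mir133b-3p, a muscle miRNA encoded beside Mir206, had 3 reads in f/f and 0 in null that fit it alone, against 2236 f/f reads of miR-206-3p. Reads that fit Mir133b, Mir133a-1 and Mir133a-2 alike numbered 0 in f/f and 2 in null. Since miR-206 was chosen partly for its f/f level, these counts are a description.

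Other muscle miRNAs were scarce. Of 8 muscle miRNA species with reads, miR-206-3p alone had at least 100 f/f reads, and it held 2236 of the list's 2275 f/f reads. The muscle marker list, which does not contain miR-206, had 4 f/f and 7 null reads in all.

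Of the 314 miRNA species that reached 100 f/f reads, 87.9% were lower in null by more than 2-fold, and the median log2 change was -5.22. In the neural list 5 of 5 such species were lower, with a median of -6.56, and 2 of the 5 were miR-129 arms. The others were miR-128-3p of Mir128-1 and Mir128-2 (746 and 5 reads), Mir128-1-3p (184 and 0) and miR-218-5p (100 and 0). The 5p side of the Mir219a-1 hairpin had 39 f/f and 13 null reads, and the 13 null reads and 2 of the f/f reads lay before the mature arm.

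In the fat and cartilage list 16 of 16 species were more than 2-fold lower, with a median of -7.28, and miR-365-3p was 1 of them. Mir140-3p, known from cartilage, had 72091 reads in f/f and 24 in null, 1901-fold lower (1277 to 2966). Of its 24 null reads, 15 were 24 nt or longer. Mir455-3p had 3183 f/f and 0 null reads, at least 671-fold lower. Among the more abundant arms in f/f, Mir140-5p had 125 null reads, 53 of them 24 nt or longer, Mir27b-3p had 78 with 13 of that length, miR-196a-5p of both copies had 79 with 0, and Mir378a-3p had 32 with 14. Mir196a-2-5p, meaning reads that fit this copy alone, had 5706 reads in f/f and 856 in null, of which 730 were 24 nt or longer. The less abundant arms Mir27b-5p, Mir455-5p, miR-27-3p of either copy, Mir378a-5p and Mir378a or Mir378c 5p had 161 to 989 f/f reads and 0 to 31 null reads. Mir196a-2-3p, below the minimum, had 50 f/f and 31 null reads, 29 of them 24 nt or longer. All lists are small, and a share of 5 of 5 or 16 of 16 is read against the 87.9% of all species.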

How the data were processed

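Small RNA of 15 to 50 nt from 1 f/f and 1 null library was measured. The authors deposited raw counts: distinct read sequences of 5 to 36 nt and how often each was seen, with no coordinates. The build was mm9, per the submitters' processing notes; tools for trimming and alignment were not given in the sources used here. Groups came from the genotype label.

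Reads of 18 nt or more were matched in sense without mismatch to GENCODE M21 transcripts (GRCm38), and those of the 5 hairpins were placed on an arm where at least 10 nt overlapped the RefSeq mature arm. Other species, and all ranks, bands and lists, were split at the hairpin midpoint, which takes in flank and loop reads. CPM used all reads in a file. Intervals are Poisson for counts, Clopper-Pearson for shares and exact conditional for ratios, all at 95%; 0 null reads were set to a floor of 3 counts. No test was made, since each genotype has 1 library. Python 3.11.15, numpy 2.4.6, scipy 1.17.1 and matplotlib 3.10.9 were used, and the scripts were tested on simulated data. The members and lists were chosen with earlier results of these data known. Named were every arm of the 5 hairpins, the leading isoforms, and listed species with at least 100 f/f or 10 null reads.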

Additional observations from a re-analysis of the deposited data

Results flagged for a closer look

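The stretch before the Mir365-2 5p arm, which belongs to no mature arm, had 31 reads in null and 2 in f/f, 24.5-fold higher in null. It was singled out because it is a signal outside the arms that were compared. Its relation to the absence of Dicer was not tested.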

How the results depend on the processing

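Across 50 alternatives for 6 results, 44 stayed within the counting interval of the main value, 6 moved outside it and 0 reversed. For miR-206-3p, with 0 null reads, the interval used (161 to 2288) is that of the floor of 3 counts and not of counted reads. Intervals of the ratios are wide, for miR-129-5p from 728 to 160189, so a value inside them can still differ much from the main value. Scaling per miRNA read, tried after seeing the data, gave the largest shift: miR-129-5p was 148-fold lower, miR-365-3p 72.6-fold and miR-206-3p at least 17.2-fold, and the stretch before the Mir365-2 5p arm was 673-fold higher. miR-206-3p was at least 140-fold lower when scaled per read matching a transcript, against 472-fold, and the stretch before the Mir365-2 5p arm was 5.64-fold higher per snoRNA and snRNA read, against 24.5-fold. All 6 follow from the construction of the scale, which shifts all values by 4.78 (miRNA reads), 1.75 (matching reads) and -2.12 (snoRNA and snRNA reads) on the log2 scale. Over the other alternatives miR-129-5p was 1202- to 17625-fold lower, miR-365-3p 591- to 8670-fold, miR-206-3p at least 140- to 2050-fold, and the stretch before the Mir365-2 5p arm 5.64- to 82.7-fold higher, whose alternatives were all chosen after seeing the data. The Mir129-1 share ran from 0.218% to 0.238% and the Mir365-1 share from 41.2% to 45.6%. No paired analysis was possible because each genotype has 1 library. Depth limits the null arms, which rest on 0 to 2 reads.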
